A study of Mus musculus with 12 samples.

Results

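Cyp2a22, Cyp2a4, Cyp2b13, Cyp1a2 and Cyp21a1 encode cytochrome P450 enzymes of the families that act on drugs and steroids, and all 5 were measured in livers of mice that lack the drug-sensing receptor PXR. On a high-fat diet 4 of the 5 were higher than on chow: Cyp2a22 by 13.9-fold, Cyp2a4 by 10.98-fold, Cyp21a1 by 10.6-fold and Cyp2b13 by at least 23.5-fold. The last 2 folds are imprecise, since chow mice had 0, 3 and 2 reads of Cyp21a1 and 0 of Cyp2b13. The authors' log2 fold changes for them are 0.95 and 1.24. Cyp1a2 was 2.12-fold lower. In mice fed the high-fat diet and given the PXR ligand PCN, Cyp2a4 was 2.21-fold lower than in mice given vehicle.

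The 5 genes were chosen by name from rows that the authors' own test had already selected as changed, so the diet values of all 5, and the PCN values of Cyp2a4, are a description and not a test. They are 5 of the 336 genes in the diet table held here, and Cyp2a4 is also 1 of the 33 genes in the PCN table. No listed gene has a log2 fold change smaller in size than 0.6 in the authors' deposited table. The largest adjusted p is 0.0474 for diet and 0.09547 for PCN. A gene that is not listed has no value here. Of the 5, Cyp21a1 lay nearest to that limit, with an adjusted p of 0.03256 in the authors' deposited table, and no gene just outside it has a value here.

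All 12 mice were PXR deficient, of strain C57BL/6N, with 3 in each of 4 groups, and RNA of the liver was sequenced. Diets began at 6 weeks of age and lasted 18 weeks: HFD mice received a high-fat diet, and chow mice a regular one, and no injection is listed for either. HFD PCN mice were fed the high-fat diet and then given 50 mg/kg of PCN into the abdomen once a day for 4 days, and HFD vehicle mice received the solvent (30% DMSO in corn oil) in the same way. Since every group lacks PXR, nothing here compares mice with and without the receptor. The labels give neither the sex of the mice nor how the deficiency was made, and Nr1i2, which encodes PXR, is not among the rows used here, so the genotype was not checked.

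Cytochrome P450 enzymes are heme proteins that insert oxygen into small lipophilic molecules, and the liver is their main site. Enzymes of families 1 to 3 handle drugs, toxins and steroid hormones, and their genes are switched by ligand-activated factors: PXR (Nr1i2) and CAR (Nr1i3) for many Cyp2 and Cyp3a genes, and the aryl hydrocarbon receptor (AHR) for the Cyp1 genes. PCN, a synthetic steroid, is the classic ligand of rodent PXR. In mice several Cyp2a and Cyp2b genes also differ between the sexes under the pattern of growth hormone release.

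The promoters are shown because transcription factors bind short motifs, and of the 4 genes with an entry 3 were higher and 1 was lower on HFD. The factors named above can also act from sites further away, which were not searched. RefSeq (GRCm38.p6) has an entry for 4 of the 5 genes: Cyp2a22, Cyp2a4, Cyp2b13 and Cyp1a2. The 250 bases before each RefSeq start are printed 5′ to 3′, and capitals mark matches to TATAAA or AGGTCA on either strand. Distances to a start are to the RefSeq start, which differs from the gene positions given further below. By those positions the windows of Cyp2a4 and Cyp1a2 reach into the gene.
Cyp2a22 (chr7:26939387-26939636, minus strand): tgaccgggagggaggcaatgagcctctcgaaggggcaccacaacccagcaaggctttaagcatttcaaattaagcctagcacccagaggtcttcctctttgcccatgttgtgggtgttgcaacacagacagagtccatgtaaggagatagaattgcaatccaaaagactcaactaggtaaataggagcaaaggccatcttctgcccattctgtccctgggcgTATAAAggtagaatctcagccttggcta
Cyp2a4 (chr7:26306942-26307191, plus strand): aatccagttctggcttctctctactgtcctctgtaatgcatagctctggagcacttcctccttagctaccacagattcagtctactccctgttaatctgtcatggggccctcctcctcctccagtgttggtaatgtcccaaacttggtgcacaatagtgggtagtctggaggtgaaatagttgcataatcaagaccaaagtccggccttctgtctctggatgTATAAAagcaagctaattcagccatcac
Cyp2b13 (chr7:26061245-26061494, plus strand): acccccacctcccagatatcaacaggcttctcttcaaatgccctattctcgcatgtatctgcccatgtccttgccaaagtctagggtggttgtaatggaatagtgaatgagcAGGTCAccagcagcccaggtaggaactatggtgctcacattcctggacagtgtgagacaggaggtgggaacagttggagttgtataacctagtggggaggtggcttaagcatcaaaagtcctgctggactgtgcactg
Cyp1a2 (chr9:57683656-57683905, minus strand): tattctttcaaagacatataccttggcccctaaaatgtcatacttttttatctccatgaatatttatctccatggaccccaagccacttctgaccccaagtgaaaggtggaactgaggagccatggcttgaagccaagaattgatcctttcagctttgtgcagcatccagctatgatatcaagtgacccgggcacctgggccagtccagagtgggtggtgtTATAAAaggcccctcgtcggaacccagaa
TATAAA, the TATA box, was found 28 bases before the start of Cyp2a22, 28 before that of Cyp2a4 and 29 before that of Cyp1a2, and was not found in the Cyp2b13 window. AGGTCA, the half-site of many nuclear receptors, was found once, 138 bases before the start of Cyp2b13. Over all 32851 windows of this length, searched on both strands, 12.4% hold TATAAA and 14.0% hold AGGTCA. The core that AHR binds, GCGTG, is in 28.2% of all windows, and TTCNNNGAA, the STAT motif, is in 7.02%. CCAAT is in 33.8%, and CAAGGTCA, which contains AGGTCA, is in 1.33%. None of these last 4 motifs is in the 4 windows, which says only that the letters are not in these 250 bases.

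Near-identical neighbours bear on what the counts of these genes mean. The first 60 coding bases of the pair Cyp2a4 and Cyp2a5 and of the pair Cyp2a22 and Cyp2a12 (GENCODE M21) are therefore set below each other, 5′ to 3′, with capitals marking bases that differ from Cyp2a4.
Cyp2a4: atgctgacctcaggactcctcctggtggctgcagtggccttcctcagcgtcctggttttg
Cyp2a5: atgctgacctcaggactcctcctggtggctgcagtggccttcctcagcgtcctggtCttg
Cyp2a22: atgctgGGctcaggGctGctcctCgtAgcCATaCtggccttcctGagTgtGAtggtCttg
Cyp2a12: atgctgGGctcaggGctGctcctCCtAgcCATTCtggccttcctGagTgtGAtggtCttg
Cyp2a5 differs from Cyp2a4 at 1 of the 60 bases, and Cyp2a22 at 15. Cyp2a12 differs from Cyp2a4 at 17 and from Cyp2a22 at 2. Over the whole coding sequence the identity is 98.4% for Cyp2a4 and Cyp2a5, 97.0% for Cyp2a22 and Cyp2a12, and 77.1% for Cyp2a22 and Cyp2a4. The closest coding relatives of the others are Cyp2b9 for Cyp2b13 (92.7%) and Cyp1a1 for Cyp1a2 (81.9%). Cyp21a1 and the pseudogene Cyp21a2-ps share 97.9% of the aligned bases of their transcripts.

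A read that fits both copies can be counted for either, for both or for neither, and neither the read length nor the treatment of such reads is given in the sources used here. Of all stretches of 50 bases in the Cyp2a4 transcript, 38.8% also occur exactly in another gene, and Cyp2a5 alone holds 36.1%. For Cyp2b13 the share is 27.3%, mostly with the pseudogene Gm45225, Cyp2b9 and Cyp2b10, and with fewer stretches in Cyp2b23 and Cyp2b19. The share is 26.5% for Cyp21a1, nearly all of it with Cyp21a2-ps, and 25.7% for Cyp2a22, all of it with Cyp2a12. Cyp1a2 shares 4.97%, with Cyp1a1. With stretches of 100 bases the shares are lower for every one of the 5, at 11.2% for Cyp2a4, 9.29% for Cyp2b13, 6.36% for Cyp2a22, 6.18% for Cyp21a1 and 2.06% for Cyp1a2. Cyp2a5, Cyp2a12, Cyp2b9, Cyp2b10 and Cyp1a1 are not among the rows used here, so their counts cannot be set beside these. The levels of Cyp2a4, Cyp2a22, Cyp2b13 and Cyp21a1 are uncertain to that extent.

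**Figure D1:**
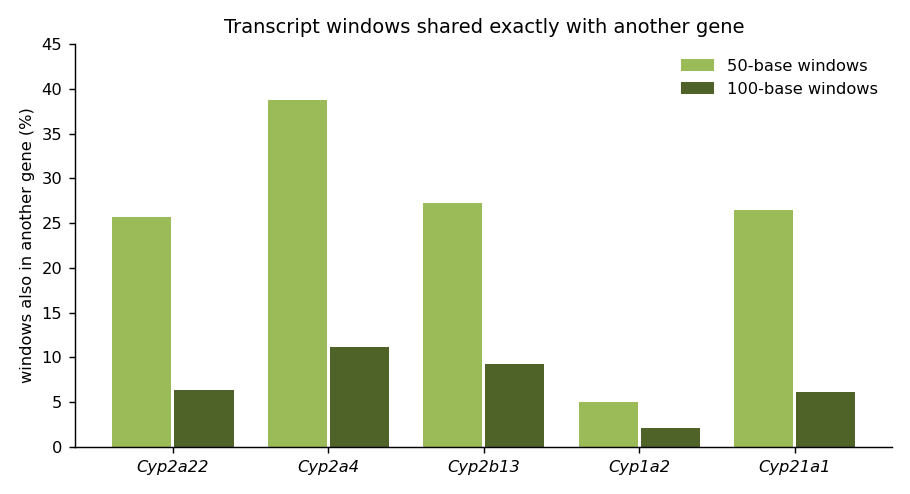
Share of the 50-base (light bars) and 100-base (dark bars) stretches of each transcript that also occur exactly in another gene (y axis, percent), for the 5 genes. Cyp2a4 has the largest share at 50 bases, 38.8%, and Cyp1a2 the smallest, 4.97%.

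Values below are normalised read counts: the count in a mouse divided by the authors' size factor for it, which corrects for sequencing depth. Size factors ran from 0.829 to 1.14 in the diet table. Each fold is a ratio of group means, and log2 ratios have a pseudocount of 0.5 added to both means. For all 5 genes the log2 fold changes in the authors' deposited table are smaller in size than these ratios.

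Cyp2a22, of the Cyp2a subfamily, lies on chromosome 7 (GRCm38, chr7:26931631-26939384, minus strand). Its normalised counts were 697, 545 and 605 in HFD mice 659, 669 and 696, against 34.2, 32.6 and 66.4 in chow mice 670, 695 and 707. All 3 HFD mice were far above all 3 chow mice, and the nearest pair of mice differed 8.21-fold. The means were 615 ± 76.6 in HFD mice and 44.4 ± 19.0 in chow mice (SD, n = 3 each), a log2 ratio of 3.78. The authors' deposited table gives it a log2 fold change of 3.13 (SE 0.22) with an adjusted p of 2.86e-43, and it ranks 1st by fold among the 215 genes that were higher. The HFD mice were also close to each other, with a coefficient of variation of 12.4%, the smallest of the 5 genes.

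Cyp2a4, a steroid hydroxylase that acts on testosterone and is known as female-predominant in mouse liver, lies 616542 bp away on the plus strand (chr7:26307169-26315088). HFD mice 659, 669 and 696 had 205, 216 and 388 normalised counts, against 22.5, 25.9 and 25.3 in chow mice 670, 695 and 707. Chow mice stood close together, with a coefficient of variation of 7.51%, whereas HFD mouse 696 was above the other 2 HFD mice. The means were 269.8 ± 102 in HFD mice and 24.6 ± 1.85 in chow mice (SD, n = 3 each), and without mouse 696 the ratio was 8.57-fold. The groups did not overlap, the nearest mice being 7.91-fold apart. For Cyp2a4 the authors' deposited table lists a log2 fold change of 2.59 (SE 0.24), with an adjusted p of 4.14e-22, the 2nd largest rise by fold.

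Cyp2b13, an enzyme of the subfamily that CAR induces and one known as female-specific in mouse liver, lies 210971 bp from Cyp2a4 (chr7:26061497-26096197, plus strand). It had 51, 8 and 21 reads in HFD mice 659, 669 and 696, and 0 in each of chow mice 670, 695 and 707. Normalised, these were 46.1, 8.61 and 18.5 in HFD mice, a mean of 24.4 ± 19.4 (SD, n = 3). Every HFD mouse thus had reads and no chow mouse did, while the HFD mice themselves ranged 5.35-fold. With a limit of 3 counts over the chow group, the mean was at least 23.5-fold higher in HFD mice, and at least 13.1-fold higher without HFD mouse 659. This limit covers counting error only, and a count of 0 does not show that the gene was silent. Its log2 fold change in the authors' deposited table is 1.24 (SE 0.27), with an adjusted p of 0.0009087, and it ranks 37th by fold among the 215 higher genes.

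Cyp1a2, the caffeine- and arylamine-oxidising enzyme of hepatocytes near the central vein and a standard AHR target, lies on chromosome 9 (chr9:57676937-57683703, minus strand). Its normalised counts were 1505, 2622 and 1927 in HFD mice 659, 669 and 696, against 2747, 6141 and 3925 in chow mice 670, 695 and 707. The groups did not overlap, but only just: the highest HFD mouse and the lowest chow mouse differed 1.05-fold, and chow mouse 695 was far above the other 2 chow mice. The means were 2018 ± 564 in HFD mice and 4271 ± 1723 in chow mice (SD, n = 3 each). The level was 2.12-fold lower on HFD, and 1.65-fold lower without chow mouse 695. Cyp1a2 has a log2 fold change of -0.86 (SE 0.23) in the authors' deposited table, with an adjusted p of 0.01623, the 61st largest of 121 falls.

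Cyp21a1, steroid 21-hydroxylase, makes glucocorticoids and mineralocorticoids in the adrenal cortex and is not known as a liver enzyme. It lies on chromosome 17 (chr17:34801348-34804561, minus strand). There were 14, 10 and 37 reads in HFD mice 659, 669 and 696, against 0, 3 and 2 reads in chow mice 670, 695 and 707. The normalised counts were 12.7, 10.8 and 32.5 in HFD mice and 0, 2.88 and 2.41 in chow mice, with means of 18.7 ± 12.1 in HFD mice and 1.76 ± 1.55 in chow mice (SD, n = 3 each). The groups did not overlap, the nearest mice being 3.74-fold apart, and HFD mouse 696 was well above the other 2 HFD mice. Without it the ratio was 6.63-fold, and without chow mouse 695 it was 15.5-fold. Few reads underlie both groups, and none of the 11 adrenal cortex markers (Star, Cyp11a1, Cyp11b1 and others) is among the listed rows. The log2 fold change in the authors' deposited table is 0.95 (SE 0.27), with an adjusted p of 0.03256.

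**Figure D2:**
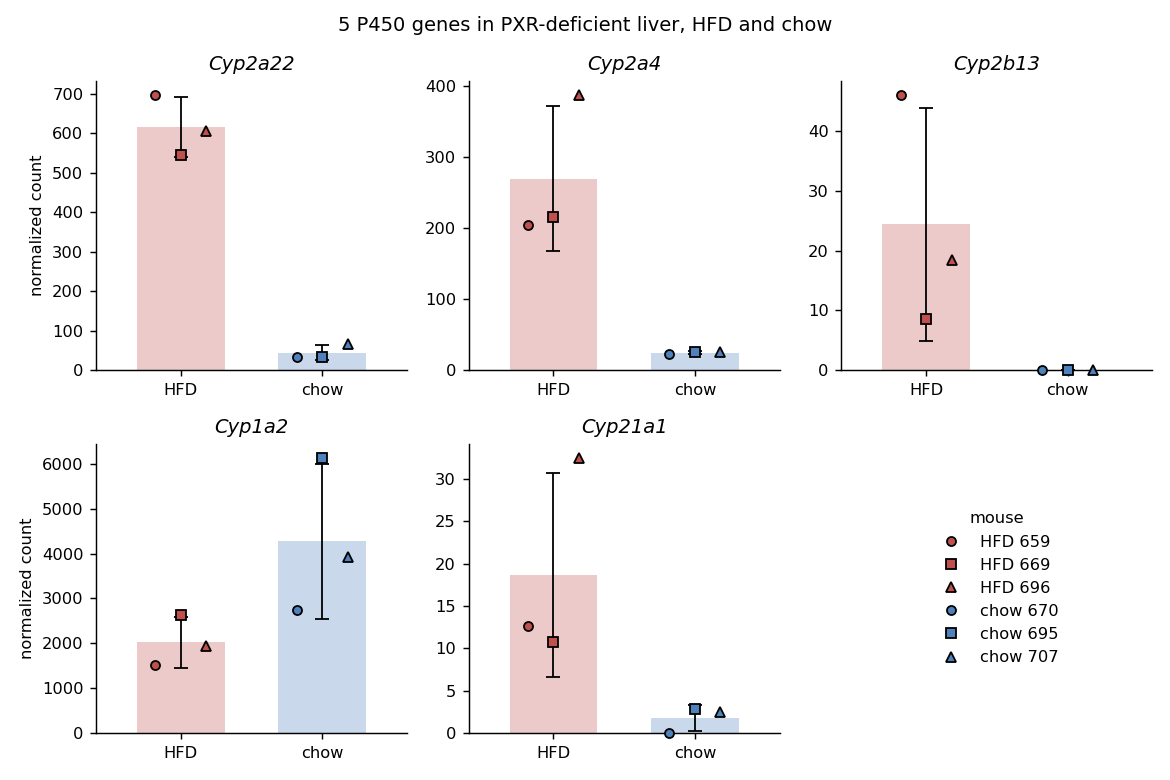
Normalised read counts (y axis, linear, a scale for each gene) in each HFD mouse (red) and each chow mouse (blue); bars are group means and error bars the SD of 3 mice. Cyp2a22, Cyp2a4, Cyp2b13 and Cyp21a1 were higher in all HFD mice, and Cyp1a2 was lower in all of them.

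The background for these calls is the whole set of genes the authors tested, estimated at 24980 from the relation of p to adjusted p. By the authors' deposited table, 215 of them were listed as higher on HFD with an adjusted p under 0.05, which is 0.861%, and 121 as lower, which is 0.484%. No listed gene has a log2 fold change under 0.6 in size. The last of the 336 listed genes ranks about 404th by p, by estimate. Some genes with as small a p are thus not listed, and these shares are too low for adjusted p alone. Since the 5 genes were chosen from the listed rows, their 4 rises and 1 fall say nothing more than the selection did. The 2 refits that follow use the same counts by which these rows were selected, so a pass is not a further test of the 5 genes. First, edgeR's quasi-likelihood test was refitted to the listed rows, with p adjusted for every gene the authors had tested. By this edgeR test 8 genes passed as higher (0.032%) and 1 as lower (0.004%), among them Cyp2a22 (adjusted p = 0.00406) and Cyp2a4 (adjusted p = 0.01002). DESeq2 on the same rows called 105 higher (0.42%) and 54 lower (0.216%), among them Cyp2a22, Cyp2a4 and Cyp2b13 (adjusted p = 0.000859). The call of Cyp2b13 was lost with edgeR (adjusted p = 0.33). Neither called Cyp1a2 (adjusted p = 0.575 with edgeR and 0.0804 with DESeq2) or Cyp21a1 (0.575 and 0.133), so for these 2 genes the call rests on the authors' own fit. On simulated counts for the diet table, with the same dispersion for every gene, edgeR called 23% of 100 genes with a log2 fold of 1. Its miss of Cyp1a2 (log2 ratio -1.08) therefore says little, and DESeq2 was not run on simulated counts.

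Per kilobase of exon, counting every annotated exon of a gene, Cyp1a2 stood highest in both groups. Its level was 1003 ± 280 normalised counts per kb in HFD mice and 2122 ± 856 in chow mice (SD, n = 3 each). Cyp2a22 followed with 179 ± 22.2 in HFD mice and 12.9 ± 5.53 in chow mice, and Cyp2a4 had 155 ± 58.9 in HFD mice and 14.1 ± 1.06 in chow mice. By this length these 2 neighbours in the order overlapped in both groups, but their order depends on the length chosen. All exons of Cyp2a22 make 3.445 kb, whereas the transcript used above for its shared stretches has 1796 bases. Per kilobase of that transcript, a length chosen after seeing the data, Cyp2a22 had 303 to 388 in HFD mice and 18.2 to 37.0 in chow mice. That was above Cyp2a4, at 118 to 223 in HFD mice and 12.9 to 14.9 in chow mice, with no overlap. At the low end, Cyp2b13 had 13.0 ± 10.4 in HFD mice and 0 in chow mice, and Cyp21a1 had 8.72 ± 5.64 in HFD mice and 0.825 ± 0.722 in chow mice. Their HFD levels also overlapped. The level of Cyp2a22 and of Cyp2a4 in HFD mice was thus well under that of Cyp1a2 on either diet.

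On chromosome 7, Cyp2a22, Cyp2a4 and Cyp2b13 belong to a cluster of 16 Cyp2 genes, 13 protein-coding and 3 pseudogenes, that spans 1356 kb. They are the 3 of these 16 that are listed, and no other listed gene lies within 10 kb of them. Cyp2a22 lies within the pseudogene Cyp2a21-ps, which runs on the other strand and shares 0 exon bases with it. Cyp2a4 overlaps the antisense gene Gm42375 over 118 bases, 61 of them in exons. Whether counting used strand is not given in the sources used here, so reads in those 61 bases cannot be assigned.

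The chromosome 17 locus holds several listed genes around Cyp21a1. C4a, which encodes a sex-limited form of complement C4, ends 4530 bp upstream of Cyp21a1 on the same strand. C4a had 363, 701 and 1397 normalised counts in HFD mice 659, 669 and 696, against 277, 265 and 356 in chow mice 670, 695 and 707. It rose on HFD (log2 fold change 1.02 with an adjusted p of 0.01055 in the authors' deposited table), but HFD mouse 659 was only 1.02-fold above the highest chow mouse. The ratio was 2.74-fold, and 1.78-fold without HFD mouse 696.

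Cyp21a2-ps, the 21-hydroxylase pseudogene 79095 bp away, had 14.5, 27.99 and 62.4 normalised counts in HFD mice 659, 669 and 696, against 7.82, 1.92 and 1.21 in chow mice 670, 695 and 707. That was a 9.58-fold difference, 5.82-fold without HFD mouse 696 and 22.4-fold without chow mouse 670. Mouse 696 was the highest of all 6 in Cyp21a1, Cyp21a2-ps and C4a, as it was in Cyp2a4. Tnxb, which encodes tenascin-X and overlaps Cyp21a2-ps by 3 bases, went otherwise: it had 804, 795 and 409 in the same 3 HFD mice, against 190, 286 and 416 in the chow mice. There mouse 696 was the lowest HFD mouse, below chow mouse 707, and the groups overlapped. Cyp21a1 itself overlaps the pseudogene Tnxa over 276 bases on the other strand, of which 102 are exonic in both, so part of its few reads could be from either gene.

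**Figure D3:**
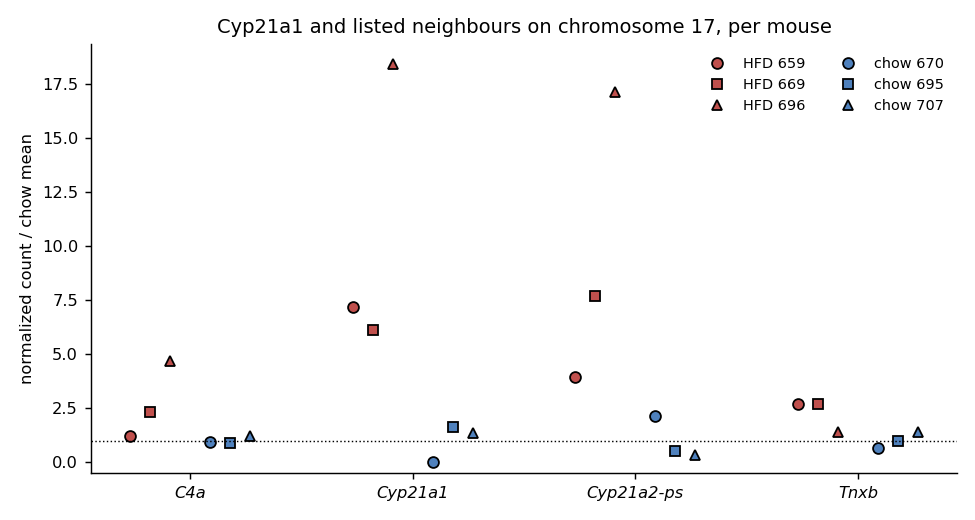
Normalised read counts of Cyp21a1 and listed genes of its locus in each HFD mouse (red) and chow mouse (blue), each divided by the gene's mean in chow mice (y axis, linear; the dotted line is that mean). HFD mouse 696 is the highest of the 6 mice in Cyp21a1, Cyp21a2-ps and C4a, and the lowest of the HFD mice in Tnxb.

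With PCN, Cyp2a4 was the only P450 gene of the 33 listed. It had 115, 114 and 151 normalised counts in HFD PCN mice 688, 698 and 706, against 393, 254 and 191 in HFD vehicle mice 682, 697 and 705. All 3 PCN mice were below all 3 vehicle mice, and the nearest mice differed 1.26-fold. The means were 126.7 ± 21.5 in PCN mice and 279 ± 104 in vehicle mice (SD, n = 3 each), a log2 ratio of -1.14. Vehicle mice were the more spread, and without vehicle mouse 682 the level was 1.76-fold lower with PCN. Reads counted before scaling were 135, 94 and 176 in PCN mice and 290, 253 and 240 in vehicle mice. The log2 fold change in the authors' deposited table is -0.73 (SE 0.18), with an adjusted p of 0.03099.

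In that comparison 10 of about 25280 genes tested, 0.0396%, were listed as lower with an adjusted p under 0.05 in the authors' deposited table. Here too the share covers only listed genes, whose log2 fold changes are at least 0.6 in size. Refits of the 33 rows with edgeR and with DESeq2, adjusted in the same way, left 0 genes lower (0%) by either tool. All 12 rows listed as lower had an unadjusted p under 0.05 in each refit, by selection on the same counts. Cyp2a4 had an adjusted p of 1 with edgeR and 0.812 with DESeq2. On simulated counts for the PCN table, with the same dispersion for every gene, edgeR called 0% of only 10 genes with a log2 fold of 1. The miss of Cyp2a4 by edgeR therefore says little, and DESeq2 was not run on simulated counts. The 2 tables were normalised separately, so the level of Cyp2a4 in vehicle mice is not set against that in HFD mice. Cyp2a22, Cyp2b13, Cyp1a2 and Cyp21a1 are not among the PCN rows used here. Mice treated with PCN had more of the macrophage marker Cd163, at 938 to 1286 normalised counts, against 503 to 690 in vehicle mice. Of 20 macrophage markers it was the only 1 listed with PCN, where 21 of about 25280 genes tested were listed as higher. The part of Cd163 in the Cyp2a4 result was not tested.

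**Figure D4:**
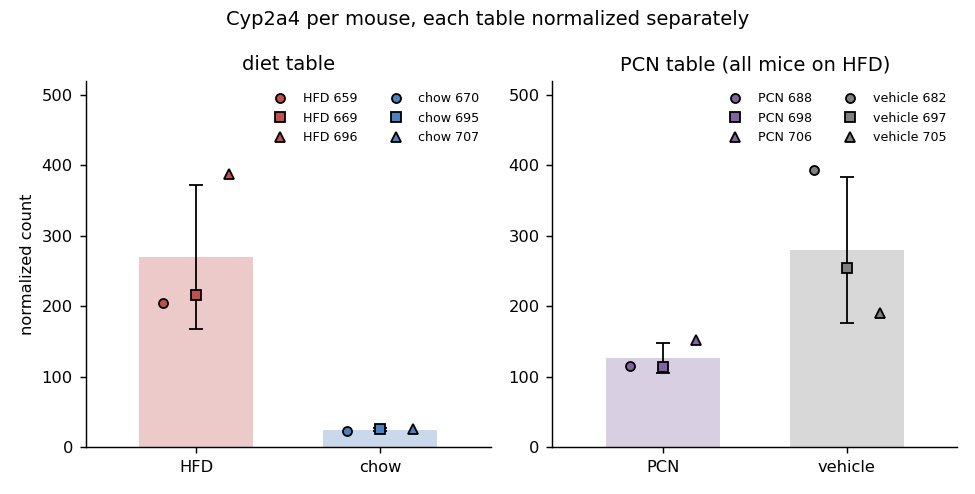
Normalised read counts of Cyp2a4 in each mouse, in the diet table (HFD, chow) and the PCN table (PCN, vehicle); bars are group means, error bars the SD of 3 mice, and the tables were normalised separately. HFD mice sit at 205 to 388 and chow mice at 22.5 to 25.9, while PCN mice sit at 114 to 151 and vehicle mice at 191 to 393.

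The pattern over the 6 diet mice was compared with that of each of 313 listed genes with an established name, as the root-mean-square difference of log2(normalised count + 1) after centring each gene on its mean. Every listed gene differs by diet, so a likeness of this kind includes the contrast by which rows were selected. Closest to Cyp2a22 were Corin, a serine protease (0.41), then Cyp2a4 (0.51) and A4gnt, a glycosyltransferase (0.60). Corin had 60.5, 31.2 and 27.3 normalised counts in HFD mice and 1.95, 0.960 and 6.03 in chow mice, and as in Cyp2a22 mouse 659 was the highest on HFD and mouse 707 on chow. For Cyp2a4 the closest were Cyp2a22, the glutathione transferase gene Gstm3 (0.52) and Fbf1 (0.53). Gstm3, like Cyp2a4, was highest in HFD mouse 696, with 1942, 1295 and 3189 in HFD mice 659, 669 and 696, against 357, 386 and 402 in chow mice.

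The genes closest to Cyp2b13 were Cyp2a22 (0.70), A4gnt (0.72) and Mrgprb11-ps (0.74). For Cyp21a1 they were Osbpl3 (0.51), Fbf1 (0.57) and Cyp2a4 (0.64). Cyp1a2 had the smallest log2 ratio of the 5 in size (-1.08). The genes closest to it were Mup-ps22 (0.20), the protease inhibitor gene Serpine2 (0.24) and the fatty acid hydroxylase gene Cyp4a12a (0.25). Chow mouse 695 was the highest mouse in all 3 of these and in Cyp1a2. In the PCN table, with 25 candidates, Mthfd1l (0.16) and Dsg1c (0.22) were closest to Cyp2a4, and vehicle mouse 682 was the highest in both.

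Beside the 5 genes, 10 further P450 rows were listed in the diet table, so that 8 of the 15 were higher and 7 lower on HFD. The 4 others that rose were pseudogenes, Cyp21a2-ps and Cyp2d36-ps, Cyp2d37-ps and Cyp2d38-ps. The 6 others that fell were the lipid enzymes: the fatty acid hydroxylase genes Cyp4a14 (log2 ratio -1.74), Cyp4a31 (-1.69) and Cyp4a12a (-1.53), the retinoic acid hydroxylase gene Cyp26a1 (-1.55), the oxysterol 7-alpha-hydroxylase gene Cyp39a1 (-0.99) and the sterol demethylase gene Cyp51 (-0.76). Of 36 P450 genes of fatty acid, sterol, bile acid, retinoid and vitamin D metabolism these 6 fell and 0 rose, and the other 30 are not among the rows. Over all genes tested, 0.861% were listed as higher and 0.484% as lower. Of 63 drug and steroid P450 genes, 5 rose and 1 fell, all but Cyp21a2-ps being the 5 genes themselves, and 57 are not listed. The median log2 ratio was -1.54 over the 6 lipid enzymes and 0.89 over all 336 rows. Both medians cover only listed rows, which were selected as changed.

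**Figure D5:**
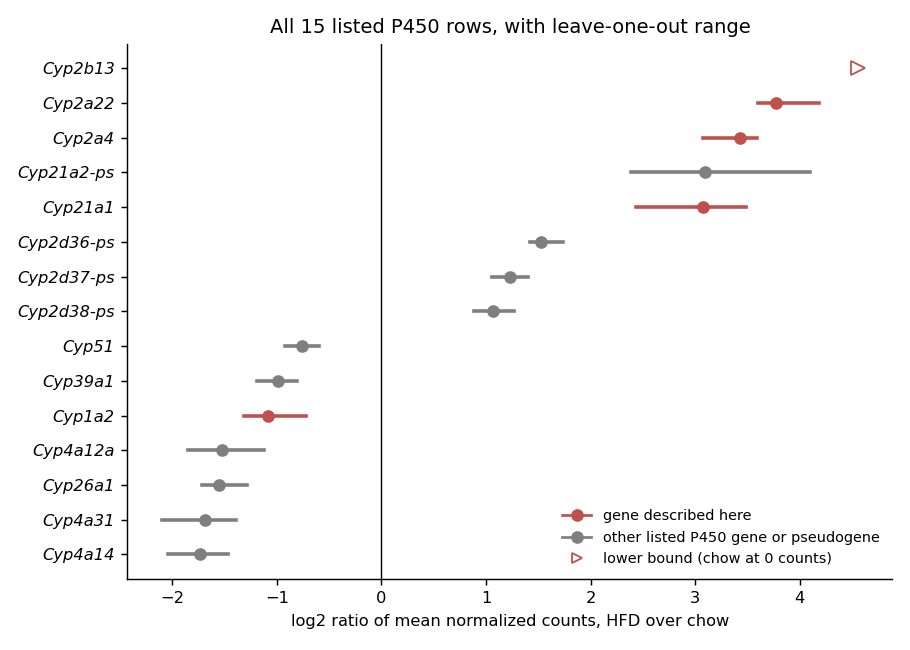
Log2 ratio of mean normalised counts, HFD over chow (x axis), for the 15 listed P450 rows, with lines for the range when each mouse is left out in turn; the open triangle for Cyp2b13 is a lower bound, since chow mice had 0 reads. The drug and steroid genes other than Cyp1a2 lie above 0, and Cyp1a2 and the 6 lipid enzymes lie below 0.

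Genes that pair with the P450 enzymes gave a mixed picture. Of 15 genes for redox partners and heme synthesis, and of 28 for nuclear receptors and other sensors of P450 genes, none is listed for either comparison. Of all genes tested, 0.861% were listed as higher on HFD and 0.484% as lower. Among 35 conjugation and transport genes known to respond to PXR or CAR, 5 rose and 0 fell on HFD, and the other 30 are not listed. Those that rose were Gstm3 (5.62-fold), the organic anion transporter gene Slco1a4 (4.48-fold), Gstm2 (2.66-fold), Gstt3 (1.85-fold) and Gstt1 (1.66-fold). Their median log2 ratio was 1.41, over genes selected as changed. None of the 35 is listed with PCN. Of 12 AHR target genes, the fatty acid transporter gene Cd36 rose 2.90-fold and Cyp1a2 was lower. With PCN the methyltransferase gene Inmt fell, and no other AHR target was listed. Over all genes tested, 0.0396% were listed as lower with PCN.

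Sex-biased liver genes were counted because Cyp2a4 and Cyp2b13 are among them. Over all genes tested, 0.861% were listed as higher on HFD and 0.484% as lower. Of 32 female-biased genes 6 rose and 0 fell on HFD: Cyp2a4, Cyp2b13, Slco1a4, the hydroxyacid oxidase gene Hao2 (13.4-fold), Cd36 and the monooxygenase gene Fmo2 (2.14-fold). Hao2 had only 2, 3 and 0 reads in chow mice 670, 695 and 707, and its ratio was 22.2-fold without chow mouse 695 and 8.96-fold without chow mouse 707. Without Cyp2a4 and Cyp2b13, which were chosen for their diet difference, 4 rose, with a median log2 ratio of 1.85. These 4 were listed by the same diet contrast, and the 26 genes that are not listed have no value here. Of 34 male-biased genes 1 rose, Gstp3 (1.95-fold), and 4 fell. These were Cspg5 (9.52-fold lower), Cyp4a12a (2.89-fold lower), Gstp1 (2.47-fold lower) and the pheromone carrier gene Mup20 (1.92-fold lower), and the median over the 5 was -1.30. Medians over listed genes cannot stand for the whole list. C4a, the gene of the sex-limited complement form described above, is in neither list and was 2.74-fold higher on HFD. With PCN, Cyp2a4 was the 1 listed female-biased gene and no male-biased gene was listed.

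Cyp1a2 is a gene of the pericentral zone, and 43 such genes and 33 periportal ones were counted. The shares over all genes tested were 0.861% listed as higher on HFD and 0.484% as lower. Beside Cyp1a2, the vasopressin receptor gene Avpr1a fell (7.91-fold lower) and Gstm3, Gstm2 and Lect2 (1.74-fold) rose, so the 5 listed pericentral genes went both ways. Of the periportal genes Aldh1b1 rose 1.95-fold and the E-cadherin gene Cdh1 fell (2.42-fold lower). With PCN the transaminase gene Tat rose, 1 of 21 genes listed as higher of about 25280 tested.

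Markers of other liver cells also moved with diet, where 0.861% of all genes tested were listed as higher on HFD and 0.484% as lower. Of 20 stellate cell and fibroblast markers 7 rose, Col3a1 and Col1a1 among them. The summed level of these 7 was 4553 to 6753 normalised counts in HFD mice and 2278 to 2447 in chow mice. Of 20 macrophage markers Itgax and Mmp12 rose, with a sum of 71.2 to 119 in HFD mice and 12.5 to 25.3 in chow mice. Of 8 adipocyte markers Pparg rose. The sums cover only markers listed as changed by diet, so their difference was fixed by that selection. The other 13, 18 and 7 markers of these lists have no value here. None of the 11 hepatocyte, 16 lymphocyte, 12 endothelial or 9 cholangiocyte markers is listed, so the labelled tissue could not be checked against its own markers. Their part in the values of the 5 P450 genes was not tested, and in whole liver fewer cells of a type and less RNA per cell cannot be told apart.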

How the data were processed

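Liver RNA of 12 mice was analysed, grouped by the labels. HISAT2, HTSeq and DESeq2 are named in the submitters' processing notes, with the build GRCm38 (mm10), but no version, setting or use of strand is given. What the authors deposited for each gene, per the file headers, is a raw read count for every mouse and their own mean, log2 fold change (with the standard error) and both p-values, raw and adjusted. Only selected genes are listed, so library sizes are unknown; the listed counts sum to 547431 to 920106 per mouse for diet and 34989 to 103036 for PCN.

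Size factors were recovered from the authors' mean column by least squares (largest gap 0.00509 counts) and ran from 0.737 to 1.26 in the PCN table. Numbers of genes tested were estimated from the ratio of adjusted p to p. No row was filtered out, so all 5 genes were used. Calls are listed genes with the authors' adjusted p under 0.05, and no listed gene has a log2 fold change under 0.6 in size. As alternatives, edgeR 4.0.16 and DESeq2 1.42.0 in R 4.3.3 were refitted to the listed rows and adjusted by Benjamini-Hochberg over all genes tested. Simulated counts were drawn with the same dispersion for every gene. For the diet table (336 genes), edgeR called 23% of 100 genes with a log2 fold of 1 and 98% of 100 at 2. For the PCN table (33 genes), it called 0% of 10 and 88.9% of 9. Sequences were compared with Python 3.11.15 and Biopython 1.88 on GENCODE M21 transcripts and RefSeq promoters; positions are 1-based.

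The genes and all lists were chosen with earlier results of these data known. Named were the 5 genes, the 3 listed genes closest in pattern, all listed P450 rows, up to 4 called genes per list and direction, Tnxb, and listed genes within 10 kb; Gstt3, Hao2 and Fmo2 fall outside this rule and were named after their values were seen. A gene that the rule names is not reported here. Labels do not name litters or cohorts, so p-values measure the spread between these mice. With 3 mice against 3, an exact permutation test cannot give a two-sided p below 0.1, and none was run.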

Additional observations from a re-analysis of the deposited data

How the results depend on the processing

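Log2 ratios of the 5 genes were recomputed without scaling, with edgeR's TMM, with DESeq2's median of ratios, with a pseudocount of 5, with group medians and without each mouse. Of 66 such values 56 stayed within the replicate spread, 10 moved beyond it and 0 reversed. The tables hold selected genes, and rescaling on them moved the median of all diet rows by -0.63 (TMM) and -0.65 (median of ratios), and of all PCN rows by -0.50 and -0.64. With these scalings the log2 ratio of HFD over chow became 3.14 and 3.11 for Cyp2a22, 2.81 and 2.79 for Cyp2a4, and -1.71 and -1.73 for Cyp1a2, and that of PCN over vehicle for Cyp2a4 became -1.63 and -1.76. With a pseudocount of 5 it was 2.56 for Cyp2b13 and 1.81 for Cyp21a1. Without each mouse in turn, it ran between 3.60 and 4.18 for Cyp2a22, 3.07 and 3.59 for Cyp2a4, 4.81 and 6.03 for Cyp2b13 (set by the pseudocount, with chow at 0), -1.32 and -0.73 for Cyp1a2, and 2.43 and 3.49 for Cyp21a1, and for Cyp2a4 with PCN between -1.35 and -0.81.

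List counts depended more on the fit. Over all genes tested, edgeR called 8 higher on HFD (0.032%) and 1 lower (0.004%). DESeq2 called 105 higher (0.42%) and 54 lower (0.216%). With so few genes called by edgeR, a low count in a list says nothing about that list. With edgeR, drug and steroid P450 genes higher on HFD were 2 and lower 0, other P450 genes lower were 0, PXR and CAR genes higher 1, AHR targets higher 0 and lower 0, female-biased genes higher 1, male-biased higher 0 and lower 0, pericentral higher 1 and lower 1, and periportal higher 0 and lower 0. With DESeq2, drug and steroid P450 genes lower were 0, PXR and CAR genes higher 3, AHR targets lower 0, male-biased higher 0, pericentral lower 1, and periportal higher 0 and lower 0. At the authors' adjusted p under 0.01 the same 7 counts were 0, 3, 0, 0, 1, 0 and 0. The share over all genes tested was not computed at that limit. All 336 diet rows and 33 PCN rows had an unadjusted edgeR p under 0.05, by selection. Depth limits Cyp2b13 and Cyp21a1, with few reads in any mouse. No paired analysis was possible because the mouse numbers are not shared between groups.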

Other observations

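The 3 Cyp2d pseudogenes in the diet table lie side by side on chromosome 15 (GRCm38) and were all higher on HFD. Cyp2d36-ps (82671288 to 82683257) had 938, 1376 and 1397 normalised counts in HFD mice 659, 669 and 696, against 362, 382 and 542 in chow mice 670, 695 and 707, a 2.89-fold difference. Cyp2d37-ps (82688750 to 82693148) had 2738, 4001 and 4160 in HFD mice and 1173, 1567 and 1917 in chow mice, a 2.34-fold difference. Cyp2d38-ps (82693571 to 82707353) had 1753, 2579 and 2373 in HFD mice and 775, 1081 and 1337 in chow mice, a 2.10-fold difference. In each of the 3 the groups did not overlap, but these rows were listed for differing by the same diet contrast. Mouse 659 was the lowest HFD mouse in each, unlike in Cyp2a22 and Cyp2b13, where it was the highest. How reads shared with coding Cyp2d genes were counted is not given, so these values are uncertain.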
